A study of Mus musculus with 7 samples.

Results

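Components of cilia, centrioles and sperm tails were examined in the testes of mice with and without *Ctcf* in their germ cells. A coding gene was included when its cellular component annotation in the authors' deposited array table held a cilium, axoneme, flagellum, centriole, basal body or centrosome term. Genes whose symbols begin with Dnah, Dnaic, Dnal, Dync, Dynl, Kif, Klc, Tub, Ttll, Ccdc, Lrrc, Wdr, Ttc or Iqc were left out, which removed 41 genes with the same terms. The rule gave 170 of the 3997 coding genes that have a row in the table. It used no measured value, but the table itself was cut down by the authors to rows with at least a 2-fold difference between genotypes and p below 0.05 before adjustment. All 170 genes were therefore different between genotypes by the authors' filter before any of them was chosen, and what can be described here is the direction and size of each difference. Ciliary genes that have no row were not analysed here, and the lack of a row is not read as the absence of a difference.

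CTCF is a zinc finger protein that binds DNA and shapes chromatin loops. The array series compared 3 wild-type mice with 4 *Ctcf*-cKO mice, which carried 1 floxed and 1 deleted *Ctcf* allele together with the *Stra8-iCre* transgene. The *Stra8* promoter drives Cre in spermatogonia and pre-leptotene spermatocytes, so that *Ctcf* is not targeted in the somatic cells of the testis. Per the study's methods, the mice called wild-type were littermates without the transgene whose *Ctcf* alleles were f/f, wt/f or wt/wt, all mice were adults of one inbred background, and RNA was taken from seminiferous tubules, whereas the sample titles name testes. The targeted gene could not be checked, because *Ctcf* has 0 rows in the table. The table gives 1 bi-weight average of the log2 signal per genotype, over 3 wild-type or 4 *Ctcf*-cKO arrays, and 0 columns of single arrays. No spread between mice, no interval and no test could be computed, the overlap of single mice between genotypes is unknown, and every difference below is the *Ctcf*-cKO average minus the wild-type average on the log2 scale. With so few arrays, the precision of each average is limited.

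A centriole is a barrel of microtubules. In a dividing cell it sits within the pericentriolar material as part of the centrosome, and in a ciliated or flagellated cell it becomes the basal body from which the axoneme grows. The axoneme of a motile cilium carries dynein arms, radial spokes and a central pair of microtubules, and it is extended by intraflagellar transport, in which protein complexes carry cargo along the microtubules. Round spermatids grow a single flagellum, which later gains outer dense fibres, a fibrous sheath and sperm-specific ion channels, whereas most somatic cells of the testis can form a primary cilium that serves signalling such as the Hedgehog pathway.

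Of the 170 genes, *Ctcf*-cKO testes had lower signals of 135 (79.4%) and higher signals of 35 (20.6%). Among all 3997 coding genes with a row, 61.3% were lower and 38.7% were higher. The lower genes had a median difference of -1.26 on the log2 scale, with quartiles of -1.42 and -1.12 and a range from -1.97 to -1.01. All 2450 lower coding genes of the table had a median of -1.29 and reached -2.96, so the ciliary and centrosomal genes stood in the ordinary range of differences and not at its end. Their median signal was 9.71 in wild-type and 8.38 in *Ctcf*-cKO. The 35 higher genes had a median difference of 1.35, against 1.33 for all 1547 higher coding genes, and ran from 1.02 to 1.98. Past a linear fold of 3 there were 16 lower genes (9.41% of the 170) and 7 higher ones (4.12%), where the table has 7.98% and 10.3% of all coding genes. The median difference over all 7580 rows of the table was -1.15, and 96 of the 135 lower genes (71.1%) were below it, against 75.2% of all lower coding genes. If the differences are counted from that median instead of from 0, only genes below it are still lower, so the count below -1.15 is given with each list. No gene of the 170 had an average under 6 in both genotypes, which only 23 of all 3997 coding genes had. Some had such an average in a single genotype. These were *Irs1* (5.43), *Cc2d2a* (5.60) and *Mpp1* (5.75) in wild-type and *Tmc1* (5.63) and *Klhl41* (5.85) in *Ctcf*-cKO.

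The genes left out by the start of their symbol, mostly families of axonemal motors and scaffolds, leaned further to the lower side, with 38 of 41 (92.7%) lower and a median difference of -1.37. The share of lower genes also differed between the terms of the rule. Every gene with the term centriole (23) or sperm flagellum (7) was lower, as were 24 of 25 with motile cilium, 11 of 12 with axoneme, 56 of 62 with cilium and 19 of 21 with ciliary basal body. The term centrosome had 63 lower and 22 higher genes (74.1% lower). Of the 59 genes that had centrosome terms and no other term of the rule, 37 were lower (62.7%), a share close to the 61.3% of all coding genes. Of the 111 genes with any other term, 98 were lower (88.3%), and of the 41 with a motile cilium, flagellum or axoneme term 39 were lower (95.1%). A gene can carry several terms, so these counts overlap. The word search also took in 4 genes whose term is stereocilium, an actin-based protrusion that is no cilium: *Tmc1* and *Tprn* were lower, and *Mpp1* and *Twf2* were higher.

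**Figure D1:**
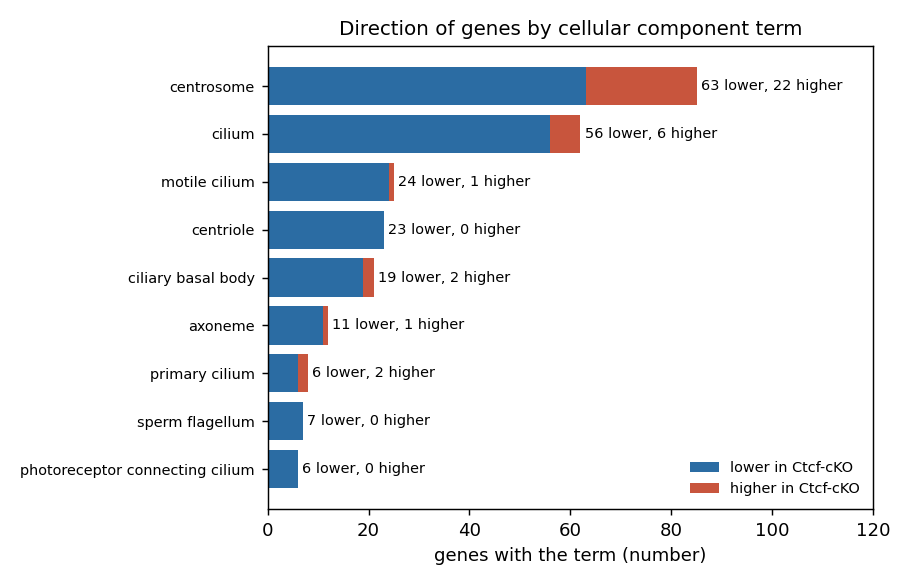
Number of genes with each cellular component term (horizontal axis), split into those lower (blue) and higher (red) in *Ctcf*-cKO than in wild-type. Centriole and sperm flagellum have no higher gene, and centrosome has 22 of the higher genes; a gene with several terms is drawn under each.

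The lower genes came with lower signals of those listed meiotic and postmeiotic germ cell genes that have a row. Of 8 listed genes of primary spermatocytes the 6 with a row were lower, as were 6 of 8 of round spermatids and 3 of 11 of elongating spermatids, and none of these 3 lists had a higher gene. Among the listed genes without a row are *Prm1* and *Prm2*, which the paper did not find down-regulated in these arrays. *Sycp3*, also without a row, is reported there as unaffected. The paper's histology found that spermatocytes and round spermatids still formed normally in *Ctcf*-cKO testes. Summed on the linear scale over the genes with a row, the averages of the round spermatid list went from 7204 in wild-type to 2896 in *Ctcf*-cKO. The spermatocyte sum went from 4523 to 1857 and the elongating spermatid sum from 8993 to 4411. Every gene in these sums had passed the 2-fold filter, so the size of each shift was in part fixed beforehand. The sums are therefore no measure of the cell types. The lists of somatic cells moved the other way, with 7 of 8 Leydig cell genes, 7 of 10 Sertoli cell genes, 4 of 7 macrophage genes, 3 of 5 myoid genes and 2 of 5 endothelial genes having a row and each of them higher. Summed in the same way and with the same limit, the Leydig cell genes went from 7713 to 28755 and the Sertoli cell genes from 3750 to 9703. Of the 9 spermatogonial genes only *Kit* has a row, at 2.28 higher. In bulk tissue, fewer cells of a type and less RNA per cell cannot be told apart, and the part of these cell types in the differences below was not tested. *Akap4*, one of the elongating spermatid genes, is itself among the 170.

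**Figure D2:**
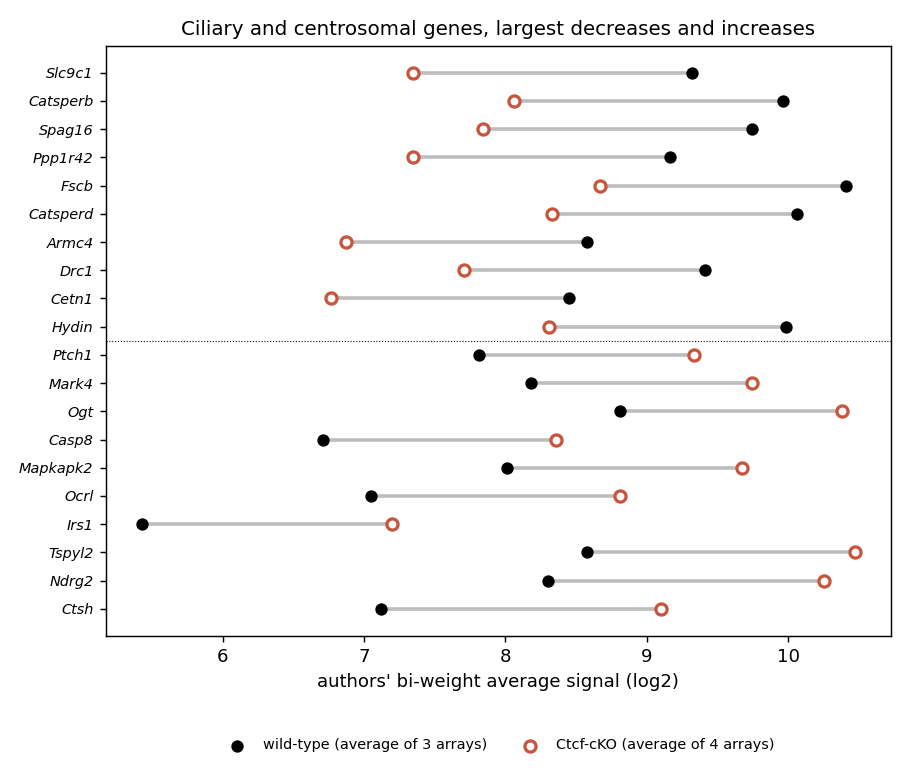
The 10 largest decreases (upper block) and 10 largest increases (lower block) among the 170 genes, drawn as the authors' average signal on the log2 scale in wild-type (filled) and *Ctcf*-cKO (open). *Slc9c1* has the longest line to the left, from 9.32 to 7.35, and *Ctsh* the longest to the right, from 7.12 to 9.10; no spread between mice is available for either average.

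The lists of the motile axoneme were covered more fully by the table than the other lists by role. A row means only that a gene passed the authors' filter. The share of all genes on the array with a row is unknown, and the lists were chosen with earlier results known. Coverage is therefore a description of these lists alone. Of 29 genes listed for the radial spokes and the central pair, 21 have a row and 21 were lower, with a median difference of -1.48, and 19 of them were below -1.15. *Spag16* (chromosome 1, 69826970 to 70725132, plus strand), which encodes a central pair protein, had the largest decrease of the list. Its signal was 9.74 in the wild-type average and 7.84 in that of *Ctcf*-cKO, a difference of -1.90. *Hydin*, a very large protein of the central pair (chromosome 8, 110266977 to 110610253, plus strand), averaged 9.98 and 8.31, a difference of -1.67. *Gm101*, the older name of the central pair gene *Cfap221*, averaged 8.55 and 6.89, a difference of -1.66. *Spag17* and *Spag6*, which act in the same structure, differed by -1.48 and -1.41. The row called *Spag6* lies on chromosome 16, where the reference gene is *Spag6l*, and whether its probes also read a close relative was not tested. Radial spokes join the outer microtubules to the central pair. The spoke gene *Nme5* averaged 10.05 and 8.43, a difference of -1.62. The spoke head genes *Rsph9*, *Rsph6a* and *Rsph1* differed by -1.53, -1.31 and -1.17, and each of these was below the median of all rows.

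Dynein arms drive the beat of the axoneme, and before they are docked they are put together in the cytoplasm. In the list for docking, assembly and the nexin link, 26 of 29 genes have a row and 26 were lower, with a median difference of -1.40 and 21 genes below -1.15. *Armc4* (chromosome 18, 7088233 to 7297932, minus strand), needed to dock the outer dynein arms, went from 8.58 to 6.87, a difference of -1.71. *Drc1*, a subunit of the nexin-dynein regulatory complex (chromosome 5, 30281388 to 30366708, plus strand), averaged 9.41 and 7.71, a difference of -1.70. The assembly factors differed less: *Zmynd10* was at 10.91 and 9.44 (-1.47), *Dnaaf1* at 11.63 and 10.54 (-1.09) and *Dnaaf2* at 8.24 and 7.17 (-1.07). *Enkur*, which encodes the calmodulin-binding axonemal protein enkurin, averaged 10.36 and 8.97, a difference of -1.39.

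Tektins are filaments along the inner wall of axonemal microtubules. *Tekt3* averaged 9.47 and 7.89 (-1.58), *Tekt4* 10.50 and 9.11 (-1.39) and *Tekt2* 10.75 and 9.52 (-1.23). All 6 coding genes of the table with a tektin domain were lower, and 3 of them are the genes named here. In the whole list of axonemal microtubule and tektin genes, 15 of 22 have a row, 15 were lower, 13 of them below -1.15, and the median difference was -1.35.

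**Figure D3:**
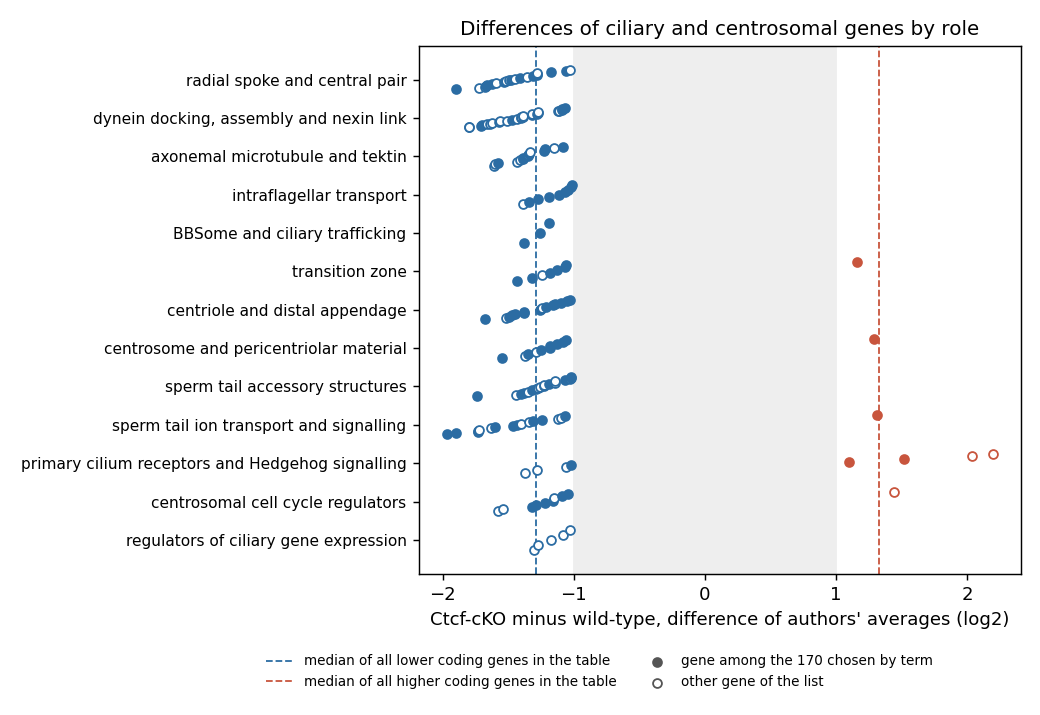
Difference of the authors' averages (*Ctcf*-cKO minus wild-type, log2, horizontal axis) for each listed gene with a row, in 13 lists by role; filled points are genes among the 170 and open points are other genes of the list, and points of a list are spread vertically by rank only. The grey band holds no point because the table leaves out folds under 2; radial spoke, dynein docking and sperm tail lists reach furthest to the left, and red points are most frequent in the list of primary cilium receptors.

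Intraflagellar transport carries axonemal parts to the tip of the growing flagellum, and the 8 genes of it among the 170 were lower by less than the axonemal structure genes. Their median difference was -1.09, 9 of the 22 listed genes have a row, and 4 of these 9 were below -1.15. Of the transport complex B, which moves outwards, *Ift172* averaged 10.15 and 8.81 (-1.34), *Ift80* 8.66 and 7.39 (-1.27) and *Ift81* 9.59 and 8.40 (-1.19). *Ift74*, *Ift57* and *Traf3ip1*, also of complex B, differed by -1.07, -1.04 and -1.02. Of complex A, which serves the way back, *Ift140* averaged 10.28 and 9.17 (-1.11) and *Ift122* averaged 9.88 and 8.87 (-1.01). *Ift122* was the lower gene nearest to the limit of the table, followed by 4 genes at -1.02, namely *Traf3ip1*, *Sufu*, *Akap4* and *Spag4*. The other 13 listed genes, among them *Ift88*, have no row and were not analysed here.

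*Ift74* also carries a microRNA gene within its span that has a row of its own. The row of *Mir872* on chromosome 4 (94665157 to 94665237, plus strand) had a wild-type average of 6.88 and a *Ctcf*-cKO average of 5.85, a difference of -1.03 beside the -1.07 of *Ift74*. That row has the position of the hairpin, and mature microRNAs were not measured. It lies on the strand of *Ift74*, so it can read the *Ift74* transcript, and which of them its probes read was not tested. The mature sequences of RefSeq (GRCm38.p6) are shown because they belong to the gene that the row is named for. The seed, bases 2 to 8, is in capitals.
mmu-miR-872-5p: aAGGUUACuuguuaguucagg
mmu-miR-872-3p: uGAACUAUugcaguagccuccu
Their seeds differ from each other.

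Cargo sorting at the base of the cilium was represented by few rows. Of 26 genes listed for the BBSome and ciliary trafficking 3 have a row, and all 3 were lower and below -1.15. The BBSome subunits *Bbs5* and *Bbs7* averaged 9.18 and 9.49 in wild-type and 7.80 and 8.23 in *Ctcf*-cKO, differences of -1.38 and -1.26. *Rab3ip*, the exchange factor that activates Rab8 on the way to the cilium, averaged 9.87 and 8.68, a difference of -1.19. The transition zone, the gate between basal body and axoneme, had 8 of 28 listed genes with a row, 7 lower (4 of them below -1.15) and 1 higher. *Cep290* (-1.43), *Ahi1* (-1.32), *Rpgrip1* (-1.18), *Cep41* (-1.13) and *B9d1* (-1.06) were among the lower genes. *Cc2d2a*, another component of the same gate, went from 5.60 in wild-type to 6.76 in *Ctcf*-cKO, a difference of 1.16 in the opposite direction. Its signal in wild-type was under 6.

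**Figure D4:**
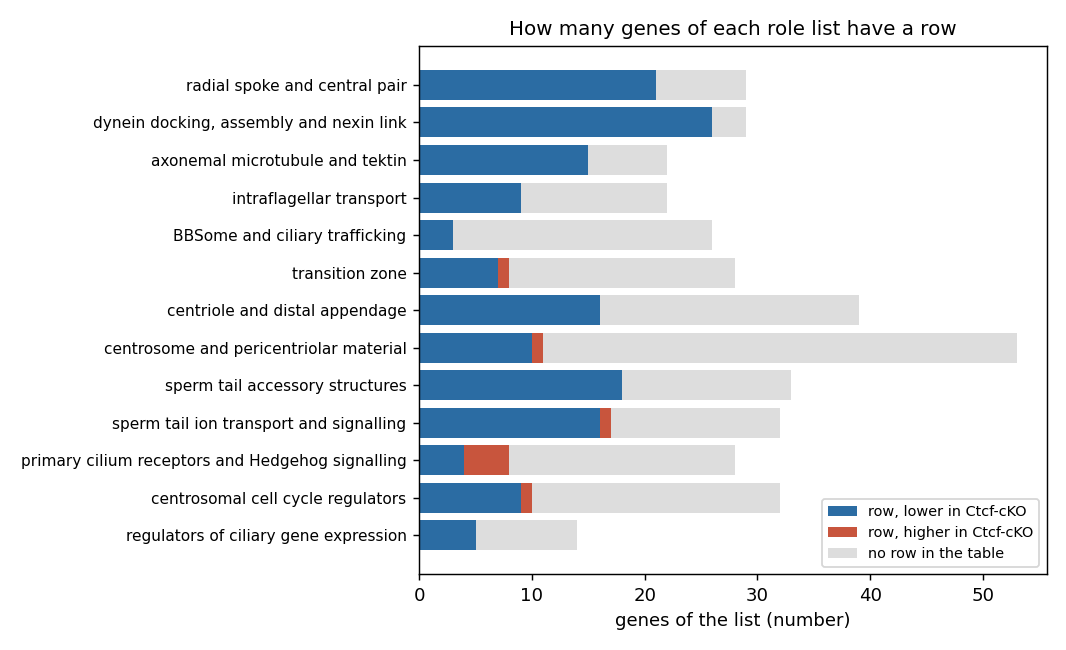
Number of genes in each role list (horizontal axis), split into genes with a row that were lower (blue) or higher (red) in *Ctcf*-cKO and genes without a row (grey). The bars of the radial spoke and dynein docking lists are mostly blue, with 8 and 3 genes without a row, whereas 42 of 53 centrosome and 23 of 26 BBSome and trafficking genes have none. A row means only that a gene passed the authors' filter, and the share over all genes on the array is unknown.

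Genes listed for the centriole and its distal appendages were all lower where they had a row. This held for 16 of 39 listed genes, of which 14 are among the 170, with a median difference of -1.25 and 12 genes below -1.15. The 16 include the kinases *Tssk1* and *Tssk2*, described below, and *Spata7*, which is also counted in the transition zone list. *Cetn1*, the centrin of male germ cells (chromosome 18, 9615524 to 9619478, minus strand), had averages of 8.45 and 6.77, a difference of -1.68 and the largest of the list. *Stil* and *Sass6*, which build the cartwheel from which a new centriole grows, averaged 8.39 and 9.53 in wild-type and 6.90 and 8.08 in *Ctcf*-cKO, differences of -1.49 and -1.45. The kinase that starts this step, *Plk4*, differed by -1.14. *Ccp110*, which caps the distal end of a centriole, differed by -1.25, and the distal appendage genes *Sclt1* and *Cep83* by -1.38 and -1.03. All 5 coding genes of the table with the process term centriole replication were lower: *Sass6*, *Ccp110*, *Cep63*, *Plk4* and *Cep135*. *Plk4*, *Ccp110*, *Sclt1*, *Cep83*, *Cep63* and *Cep135* were named here after their values were seen.

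Testis-specific serine kinases carry centriole or motile cilium terms. *Tssk1* differed by -1.47, *Tssk2* averaged 11.36 and 9.98 (-1.38), and their substrate *Tsks* differed by -1.26. *Tssk1* and *Tssk2* are neighbours on chromosome 16 with alike sequences, and whether their probes read both was not tested. *Ppp1r42*, a regulatory subunit of protein phosphatase 1 with a centrosome term, averaged 9.16 and 7.35, a difference of -1.81 and the 4th largest decrease of the 170 (chromosome 1, 9968624 to 10009136, minus strand).

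The centrosome list was the least covered of the larger lists, with 11 of 53 genes having a row, 10 lower (7 of them below -1.15) and 1 higher. *Cep72*, a protein of the centriolar satellites, averaged 10.38 and 8.83, a difference of -1.55. *Cep55*, known from the last step of cell division, differed by -1.35 and *Cdk5rap2*, which anchors microtubule nucleation, by -1.25. Augmin branches microtubules within the spindle, and 2 of its subunits differed in opposite directions. *Haus4* on chromosome 14 went from 9.20 in wild-type to 8.14 in *Ctcf*-cKO, a difference of -1.06. *Haus7* on the X chromosome averaged 8.21 and 9.50, a difference of 1.29. Among centrosomal regulators of the cell cycle, 9 of 10 with a row were lower, 6 of them below -1.15, and the 6 of them among the 170 were all lower. The activator of chromosome separation *Cdc20* differed by -1.32, the mitotic kinases *Nek2*, *Aurka* and *Plk1* by -1.29, -1.22 and -1.09, the phosphatase *Cdc14a* by -1.16 and the cyclin *Ccnb2* by -1.04.

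Sperm tail genes included the largest decreases among the 170. *Slc9c1*, a sodium-proton exchanger of the sperm flagellum (chromosome 16, 45535266 to 45607001, plus strand), had an average of 9.32 in wild-type mice and of 7.35 in *Ctcf*-cKO mice, a difference of -1.97. CatSper is the calcium channel of the sperm tail. Its auxiliary subunits *Catsperb* (chromosome 12, 101404673 to 101626009, plus strand) and *Catsperd* (chromosome 17, 56628143 to 56664456, plus strand) averaged 9.96 and 10.06 in wild-type and 8.06 and 8.33 in *Ctcf*-cKO, differences of -1.90 and -1.73. The pore subunits differed less than *Catsperb* and *Catsperd*, with *Catsper3* at -1.60, *Catsper1* at -1.46, *Catsper2* at -1.43 and *Catsper4* at -1.31. *Catsperg2*, another auxiliary subunit, differed by -1.24, which was less than any of these pore subunits. Its close relative *Catsperg1*, which is not among the 170, differed by -1.10, and whether their probes are shared was not tested. *Pgk2*, the glycolytic kinase of the sperm tail, had a smaller difference of -1.07. In the whole list of ion transport and signalling genes of the tail 16 of 17 genes with a row were lower, 13 of them below -1.15. The exception was *Pkd2*, a cation channel of primary cilia, which averaged 7.45 and 8.76, a difference of 1.31.

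The fibrous sheath and the outer dense fibres surround the axoneme of the sperm tail. In the wider list of sperm tail accessory structures, 18 of 33 genes have a row and all 18 were lower, with a median difference of -1.25 and 12 genes below -1.15. That list also holds genes of the annulus, the head-tail coupling and tail formation. It counts *Spag5* (-1.26) and *Tex101* (-1.23) too, which are not among the 170 and whose place in the tail was not checked. *Fscb*, a fibrous sheath protein that binds CABYR (chromosome 12, 64471333 to 64474898, minus strand), averaged 10.41 and 8.67, a difference of -1.74. The sheath genes *Fsip1*, *Fsip2* and *Akap3* differed by -1.38, -1.32 and -1.29, and *Tsga10*, also of the tail, by -1.40. *Akap4*, the main anchor protein of the sheath and the only one of the 135 lower genes on the X chromosome, averaged 11.39 and 10.37, a difference of -1.02. Thus within the sheath the differences ran from -1.74 to -1.02. By process term, 13 of the 170 genes were annotated to sperm motility, 8 to sperm capacitation, 6 to cilium movement and 19 to spermatogenesis, and each of these was lower. Among all coding genes with a row, 23 of 25 with sperm motility, 10 of 10 with sperm capacitation, 14 of 14 with cilium movement and 136 of 158 with spermatogenesis were lower.

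Receptors and signalling genes of the primary cilium were listed as a separate role. Of 28 genes listed for this role 8 have a row, of which 4 were lower, 2 of them below -1.15, and 4 were higher. *Ptch1*, the receptor of Hedgehog ligands (chromosome 13, 63508336 to 63565521, minus strand), went from a wild-type average of 7.81 to 9.33 in *Ctcf*-cKO, a difference of 1.52. *Smo*, the transducer that *Ptch1* holds in check, averaged 7.22 and 8.32, a difference of 1.10. *Sufu*, the cytoplasmic inhibitor of the same pathway, averaged 8.90 and 7.88, a difference of -1.02. The growth factor receptors *Pdgfra* and *Igf1r*, listed for this role but without a ciliary term in the table, differed by 2.20 and 2.04. The other lower genes of the list, also not among the 170, were *Dync2h1* (-1.37), which encodes the motor of return transport in cilia, *Efcab7* (-1.28) and *Iqce* (-1.06). By annotation the split by sign was different. Of the 8 genes among the 170 with the term primary cilium 6 were lower, but only 1 was below -1.15. With the process term smoothened signaling pathway 11 of 12 were lower, and 12 lower and 4 higher coding genes of the table carry that term. These counts are small and carry no test. The same arrays had higher signals of all 7 Leydig cell genes and all 7 Sertoli cell genes with a row, as given above.

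The other higher genes were mainly centrosome-annotated genes with wide roles in the cell. Of the 35, 22 had centrosome terms and no other term of the rule, and 30 were in none of the role lists. *Ctsh*, the lysosomal protease cathepsin H, had the largest increase (chromosome 9, 90054152 to 90076095, plus strand), from an average of 7.12 to 9.10, a difference of 1.98. Its only term of the rule is axoneme. *Ndrg2* averaged 8.30 and 10.25 (1.95), *Tspyl2* 8.58 and 10.47 (1.89) and the insulin receptor substrate *Irs1* 5.43 and 7.20 (1.77). *Ocrl*, an inositol polyphosphate phosphatase, averaged 7.05 and 8.81 (1.76), and *Mapkapk2*, a stress-activated kinase, averaged 8.01 and 9.67 (1.66). The apoptosis protease *Casp8* differed by 1.65, *Ogt*, which attaches O-linked N-acetylglucosamine to proteins, by 1.57 and *Mark4*, a kinase of microtubule-associated proteins, by 1.56. Nearest to the limit of the table were *Twf2* at 1.02 and *Marcks* and *Tln1* at 1.04. Protein kinase domains were carried by 16 of the 170 genes, of which 12 were lower and 4 higher, namely *Hipk2*, *Rock2*, *Mark4* and *Mapkapk2*. Among all coding genes with a row the domain was carried by 57 lower and 53 higher genes.

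The X chromosome held 8 of the 35 higher genes (22.9%) and 1 of the 135 lower ones (0.741%). Among all coding genes of the table, 178 of 1547 higher (11.5%) and 187 of 2450 lower genes (7.63%) were on the X chromosome. The 8 higher genes were *Tspyl2* (1.89), *Ocrl* (1.76), *Ogt* (1.57), *Mid2* (1.41), *Sytl4* (1.36), *Haus7* (1.29), *Uxt* (1.08) and *Mpp1* (1.06). Most X-linked genes are silenced in spermatocytes by meiotic sex chromosome inactivation and are expressed in somatic cells and spermatogonia. Whether this has a part in the differences of these genes was not tested. All but 2 of the 8, *Ocrl* and *Mpp1*, have centrosome terms. *Mid2*, *Sytl4* and *Uxt* were named here after their values were seen.

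Transcript clusters of the classes NonCoding and Pseudogene overlapped 19 of the 170 genes with 1 row each. The 12 on the same strand all had the direction of their gene. For *Mark4* the gene differed by 1.56 and the overlapping row by 1.57, and for *Spag16* the values were -1.90 and -1.25. A same-strand row within a gene can read the same transcript, so these rows are no separate evidence. Of the 7 rows on the opposite strand, 3 had the direction of the gene and 4 the other direction. The gene *Cntln* differed by -1.13 and the pseudogene *Gm12419* opposite to it by 1.04. *Hipk2*, higher by 1.07, had *4930502C15Rik* opposite to it at -1.21, and *Gnai1*, higher by 1.50, had an unnamed row opposite to it at -1.71. Averages of that unnamed row were 7.91 in wild-type and 6.20 in *Ctcf*-cKO. These overlapping genes were named by their overlap and not by the size of their own difference.

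Promoters were searched because so many axonemal and centriolar genes were lower together. Regulatory factor X (RFX) proteins bind the X-box, a pair of inverted arms found before many ciliary genes. RefSeq windows of 300 bases, from 250 before to 50 after each start, were found for 144 of the 170 genes, 114 lower and 30 higher. A single arm, GTTGCC on either strand, was in 32 of 139 windows of the lower genes (23.0%) and 3 of 36 windows of the higher genes (8.33%). The share was 22.3% in windows of all lower coding genes, 10.4% in those of all higher coding genes and 12.5% in all 32851 windows of the reference. In this window the lower ciliary and centrosomal genes therefore had the arm about as often as all lower coding genes, a set that includes them. With the 250 bases before the start alone the shares were 15.1% and 8.33% for the lower and higher genes of the 170, and 18.2%, 8.32% and 10.4% for the other sets.

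The pattern of GTTNCC followed after 3 bases by GNAAC, which has both arms and overlaps the single arm, was searched on both strands and was rarer. It was in 9 of 139 windows of the lower genes (6.47%), in 0 of 36 of the higher genes, in 2.70% of windows of all lower coding genes, 0.485% of all higher coding genes and 0.804% of all windows. Before the start alone it was in 6 windows of the lower genes (4.32%), against 1.98%, 0.485% and 0.667% of the other sets. Those 6 are shown with up to 20 bases on each side, 5′ to 3′ on the strand of the gene and with the match to the pattern or to its reverse complement in capitals, because they are the letters behind these shares.
*Spag16* (chr1:69826847-69826900, plus strand, difference -1.90): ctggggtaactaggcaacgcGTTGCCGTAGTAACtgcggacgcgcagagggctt
*Hydin* (chr8:110266936-110266976, plus strand, difference -1.67): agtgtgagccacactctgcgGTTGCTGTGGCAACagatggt
*Pifo* (chr3:106001498-106001537, minus strand, difference -1.65): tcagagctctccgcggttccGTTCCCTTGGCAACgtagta
*Bbs7* (chr3:36613477-36613530, minus strand, difference -1.26): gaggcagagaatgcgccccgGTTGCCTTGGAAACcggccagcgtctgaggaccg
*Rab3ip* (chr10:116950603-116950656, minus strand, difference -1.19): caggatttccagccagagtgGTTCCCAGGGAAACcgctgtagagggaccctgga
*Dnaaf2* (chr12:69198430-69198466, minus strand, difference -1.07): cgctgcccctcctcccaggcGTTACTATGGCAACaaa
The matches end between 3 bases (*Dnaaf2*) and 169 bases (*Rab3ip*) before the start, and they belong to genes of the central pair, the BBSome, dynein assembly, ciliary trafficking and, with *Pifo*, the start of ciliary growth. The positions are those of GRCm38.p6. Matches to GTTGCC alone were found in the window part before the start of a transport gene and a tektin gene too, and in that of *Ogt*, which was higher. The pattern with both arms fixes their spacing, so pairs at another spacing were not counted. In *Ift57* the letters ggtaac, which have the form of an inverted arm, come shortly after the match. *Ift57* and *Tekt2* have further matches that are not shown.
*Ift57* (chr16:49699214-49699259, plus strand, difference -1.04): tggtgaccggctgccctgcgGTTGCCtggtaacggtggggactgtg
*Tekt2* (chr4:126325759-126325804, minus strand, difference -1.23): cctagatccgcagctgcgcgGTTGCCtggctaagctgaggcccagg
*Ogt* (chrX:101639869-101639914, plus strand, difference 1.57): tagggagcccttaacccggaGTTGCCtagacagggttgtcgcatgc
Of 14 listed regulators of ciliary genes, the 5 with a row were lower, 3 of them below -1.15: *Rfx4* differed by -1.30, *Tcfl5* by -1.27, *Mybl1* by -1.17, *Rfx2* by -1.08 and *Crem* by -1.03. A match of letters is no measured binding, and the part of any of these factors was not tested.

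The other strings were searched on both strands in the same windows. The core of the CTCF motif was written as CCNNNAG followed after 2 bases by GGC. It was in 8.63% of windows of the lower genes, 11.1% (4 of 36) of those of the higher genes and 8.61% of all windows. All lower coding genes had it in 8.48% of windows and all higher coding genes in 11.8%. With the 250 bases before the start alone the shares were 8.63%, 5.56% (2 of 36) and 7.17%, so the order of lower and higher genes was reversed. The cAMP response element TGACGTCA was in 2.88% of windows of the lower genes and 0.0% of those of the higher genes. It was in 2.59% of windows of all lower coding genes and 1.79% of all windows. Its arm TGACGT, which overlaps it, was in 9.35% of windows of the lower genes and 11.1% of those of the higher genes. For the arm, all lower coding genes had 7.1% and all windows 7.51%. The MYB core CAGTT was in 41.7% of windows of the lower genes and 44.8% of all, and TATAAA in 4.32% and 13.6%, with 10.1% of windows of all lower coding genes and 2.78% of those of the higher genes of the 170. CCAAT was in 46.0% of windows of the lower genes, 25.0% of those of the higher genes, 39.2% of all lower coding genes and 37.4% of all windows. The 8 strings were chosen with the differences known, some close variants of them were also looked at, and windows of 1 gene can overlap, so the shares are descriptions without a test.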

How the data were processed

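RNA of seminiferous tubules from 3 wild-type and 4 *Ctcf*-cKO mice was hybridized to mouse transcriptome arrays. Per the labels, the submitters' processing notes name Affymetrix Expression Console 1.4.1, RMA, Transcriptome Analysis Console 3.0 and the build mm10. The authors' deposited table has 7580 transcript clusters, already filtered on fold and p, with 1 bi-weight average log2 signal per genotype, written with decimal commas. Its columns of fold change, p-value and adjusted p hold the authors' own comparison and were not used. RMA levels values between arrays, so a change of all transcripts would not be seen, and filtered rows cannot give an unchanged background.

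Coding genes were rows of the classes Coding or Complex, named by their first symbol. A gene with several rows would have been given the row with the highest mean signal, and 0 of the 170 had over 1 row. Differences were subtracted from averages rounded to 2 decimals, with Python 3.11.15, numpy 2.4.6 and pandas 2.3.3, and steps passed 7 of 7 checks on simulated data. All 170 rows overlapped their gene in GRCm38.p6, the build of mm10. Gene lists were looked up by table symbol and by the current RefSeq symbol. Named genes were the 10 largest decreases and increases, in each role list the 4 members with the largest change and the one with the highest wild-type average, and the 3 nearest to the limit in each direction. Other genes were chosen after their values were seen. The genes, lists and strings were chosen with earlier results of these data known. A few genes that the rule named are not reported here.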

Additional observations from a re-analysis of the deposited data

How the results depend on the processing

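Leaving out each mouse was not run, because the deposited values are averages per genotype. No paired analysis was possible because there are no single-array columns. The counts of 135 lower and 35 higher genes kept within 1.5 times under a signal minimum of 6, every symbol of a row, no exclusion by symbol, the row with the largest change and leaving out rows with the averages of another row. Past a fold of 3 the counts were 16 lower and 7 higher genes with medians of -1.69 and 1.77. With the class Coding alone there were 54 lower and 8 higher genes, and the median of the higher ones was 1.50. Without the term centrosome there were 98 lower and 13 higher genes. Re-centring on the table's median difference (-1.15) left 0 lower genes past a linear fold of 2 and 35 higher ones, with medians of -0.11 and 2.50; every row was selected for its fold, so this median is not that of the array. Of 66 named genes, 8 then turned to a value above 0: *Ift140* (0.04), *Dnaaf1* (0.06), *Pgk2* (0.08), *Ccnb2* (0.11), *Akap4* (0.13), *Sufu* (0.13), *Traf3ip1* (0.13) and *Ift122* (0.14). Of the 135 lower genes, 96 stayed below 0. Re-centring adds the same amount to every row, which is the cause of these turns. The share of X-box arms in windows of the lower genes moved from 23.0% to 15.1% with the 250 bases before the start alone, which is a shorter window.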
